A study of Caenorhabditis elegans with 20 samples.

Results

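Transcripts of 48 genes of the early Caenorhabditis elegans embryo were followed in whole adults of 5 strains. The genes were chosen by name. They are the kept genes among all those whose symbol starts with sdz-, vet- or pes- and a number, together with 9 lineage regulators, end-1, end-3, med-1, med-2, elt-7, tbx-37, tbx-38, ceh-51 and hlh-1. The names gave 55 genes among the 46284 listed. Of these, 48 reached 0.5 FPKM (fragments mapped to a gene, scaled by transcript length and by library size) in at least 4 of the 20 samples, a limit that 15957 genes of the whole table passed. The 48 genes are 29 of 33 sdz genes, 8 of 10 pes genes, 3 of 3 vet genes and 8 of the 9 lineage regulators.

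In the worm, the first divisions of the embryo run on RNA and protein laid down in the oocyte, and transcription from the embryo's own genome starts a few divisions later. The maternal factor SKN-1 turns on med-1 and med-2 in the mother cell of the gut and much of the mesoderm. The MED proteins then turn on end-1 and end-3, GATA factors that set the fate of the endoderm, and elt-7 acts after them in the gut. Names beginning with sdz stand for SKN-1-dependent zygotic transcripts, vet for very early transcripts, and pes for patterned expression sites found with reporter fusions. A hermaphrodite on its first day of adulthood carries fertilised embryos in its uterus, so these transcripts in a whole-adult extract can come from the embryos held inside. Genes that the adult also uses do not separate the sources. In such bulk samples, fewer embryos, younger or older embryos and less RNA per embryo cannot be told apart.

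The strains were wild-type Bristol N2, ivd-1(tm6784), bcat-1(hh58), hecd-1(tm2371) and the cross ivd-1(tm6784); bcat-1(hh58), called double mutants here, with 4 replicates each. The strains are named below by the mutated gene. IVD-1 is an isovaleryl-CoA dehydrogenase of leucine breakdown, BCAT-1 the aminotransferase that opens the breakdown of branched-chain amino acids, and HECD-1 a ubiquitin ligase. The hh58 allele carries a premature stop made by genome editing, and all mutants were crossed back into N2. Worms were hermaphrodites on day 1 of adulthood, fed OP50 bacteria at 20°C. The mutants' slower growth was allowed for at collection by checking that the worms had become adults with eggs, so age since hatching could differ between strains, and replicates came from independent experiments.

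The mutated genes were only partly informative on the labels. FPKM of hecd-1 lay between 21.5 and 23.3 in hecd-1 mutants and between 32.2 and 34.4 elsewhere. FPKM of ivd-1 lay between 149 and 162 in ivd-1 mutants, between 59.7 and 65.9 in the double mutants, between 123 and 127 in bcat-1 mutants and between 176 and 230 in the other strains. The bcat-1 transcript was not lower in bcat-1 mutants (197 to 218 FPKM) than in wild-type (123 to 145). Depth relative to the other samples, read from the smallest steps of low FPKM values, lay between 0.888 and 1.08. Over all genes tested, the median log2 fold change against wild-type was 0.17 in bcat-1 mutants, 0.11 in ivd-1 mutants, 0.10 in double mutants and 0.08 in hecd-1 mutants. Rescaling each sample by its median ratio lowered the bcat-1 mutant median by 0.18, so the values below are read against these medians.

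The members spanned a wide range of levels. The mean over all samples was 253 FPKM for pes-9, a predicted dipeptidase, 60.3 FPKM for sdz-27 and 14.7 FPKM for vet-2, and 16 genes had a mean of at least 5 FPKM. At the other end, med-2 averaged 0.275 FPKM and passed the limit in 5 samples. Outside the limit, sdz-20 reached 0.5 FPKM in 3 samples with a highest value of 0.712 FPKM. The other genes left out were sdz-23 (highest value 0.43 FPKM), med-1 (0.405 FPKM), the copies of pes-2.1 (0.0379 FPKM in 1 sample and otherwise 0) and the copies of sdz-25, which were listed at 0 throughout. The members also differed in how much replicates of a strain varied. The median coefficient of variation within a strain was 3.89% for pes-9, 6.55% for sdz-27, 8.26% for hlh-1 and 9.22% for elt-7, against 28.4% for vet-1, 34.2% for vet-6 and 53.4% for end-1.

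**Figure D1:**
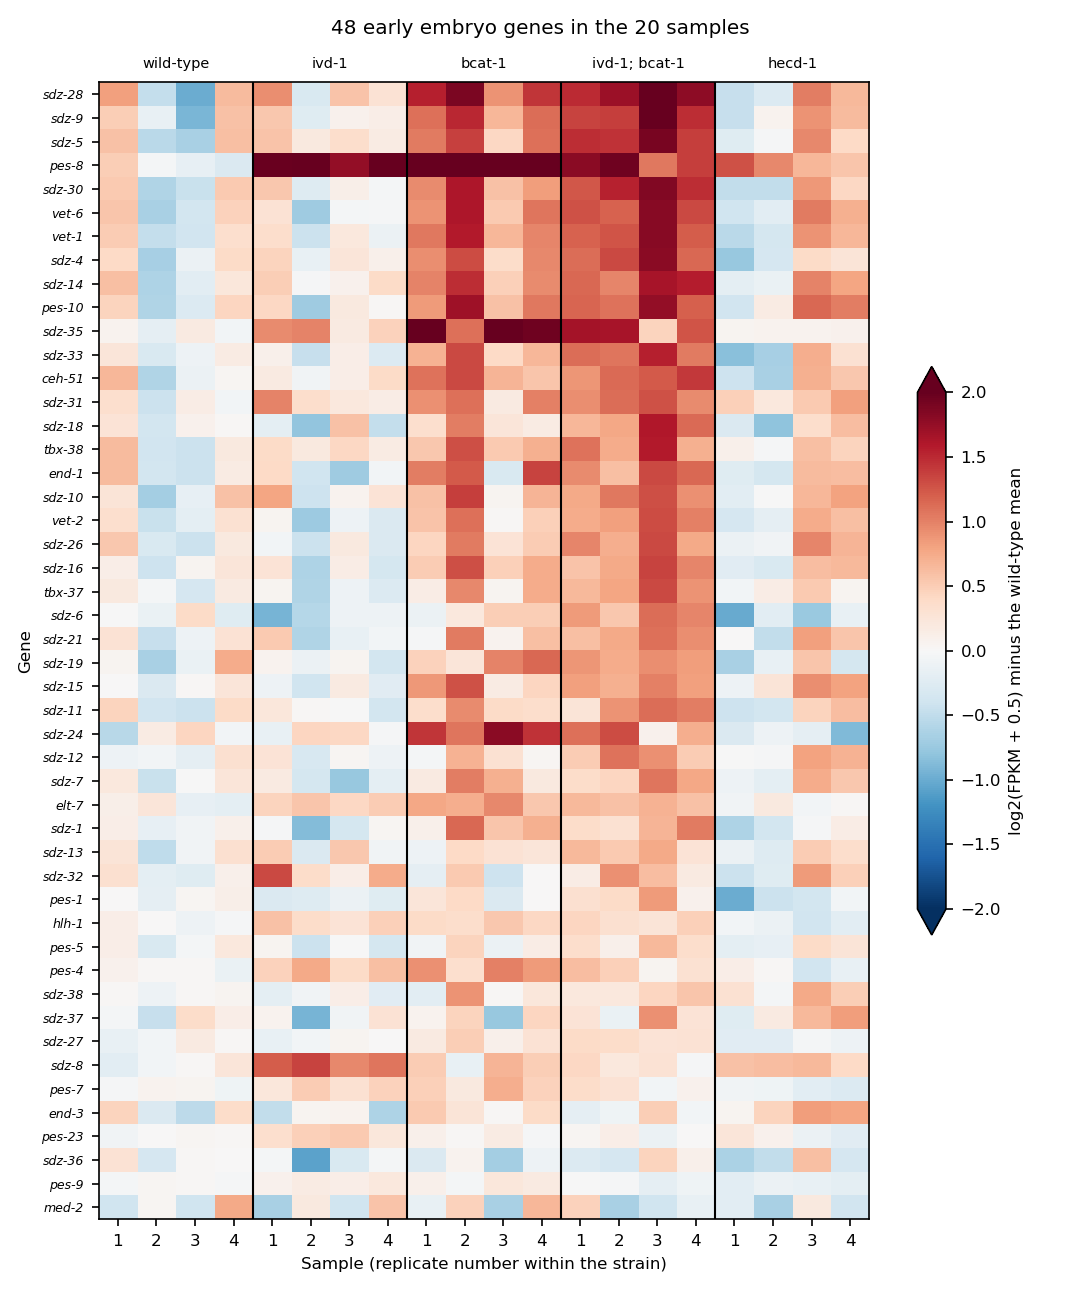
log2(FPKM + 0.5) minus the wild-type mean for the 48 genes (lines) in each of the 20 samples (columns, 4 replicates per strain). Genes are ordered by their mean in the double mutants, and colours stop at differences of 2. Most genes are red throughout bcat-1 and double-mutant samples, with replicate 2 of bcat-1 and replicate 3 of the double mutants the darkest.

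The very early transcripts were highest in the double mutants and next highest in bcat-1 mutants. vet-1 measured 11.6, 5.58, 6.03 and 10.3 FPKM in wild-type replicates 1 to 4, 17.05, 24.8, 12.9 and 16.2 FPKM in bcat-1 mutants and 18.7, 19.7, 29.3 and 19.02 FPKM in double mutants. It measured 10.3, 5.79, 9.32 and 7.29 FPKM in ivd-1 mutants and 5.35, 6.16, 15.2 and 12.96 FPKM in hecd-1 mutants. All bcat-1 mutant and double-mutant values of vet-1 lay above all wild-type values, whereas ivd-1 mutants and hecd-1 mutants overlapped wild-type. The change was 1.07 ± 0.31 SE, adjusted p = 0.0101 in bcat-1 mutants, 1.36 ± 0.31 SE, adjusted p = 0.0026 in double mutants, 0.00 ± 0.31 SE, adjusted p = 0.997 in ivd-1 mutants and 0.17 ± 0.31 SE, adjusted p = 0.758 in hecd-1 mutants, all against wild-type and by limma with Benjamini-Hochberg adjustment over the 15957 genes. Fold changes are log2 differences of FPKM + 0.5, which understates the change of low genes.

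For vet-6, wild-type samples measured 8.31, 3.33, 4.15 and 7.78 FPKM, bcat-1 mutants 10.7, 18.00, 8.14 and 12.04 FPKM and double mutants 13.97, 13.2, 20.7 and 14.5 FPKM. The values were 6.804, 3.18, 5.37 and 5.43 FPKM in ivd-1 mutants and 4.05, 4.701, 11.8 and 9.37 FPKM in hecd-1 mutants. Only the lowest bcat-1 mutant sample, replicate 3, fell inside the wild-type range, and the double mutants lay wholly above it. vet-6 rose in bcat-1 mutants (1.03 ± 0.34 SE, adjusted p = 0.0201) and in double mutants (1.40 ± 0.34 SE, adjusted p = 0.00383). The bcat-1 mutant call was lost when wild-type replicate 2, wild-type replicate 3 or bcat-1 mutant replicate 2 was left out. vet-2, the most abundant of the 3, measured 14.1, 8.02, 9.63 and 13.7 FPKM in wild-type and 18.9, 19.9, 28.1 and 22.7 FPKM in double mutants. The double mutants did not overlap wild-type for vet-2 (0.97 ± 0.27 SE, adjusted p = 0.00861), but bcat-1 mutants, at 16.7, 24.3, 11.2 and 15.7 FPKM, did, and the gene was not called there (0.54 ± 0.27 SE, adjusted p = 0.108).

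pes-10, among the first genes the embryo itself transcribes, moved with the vet genes. It measured 4.84, 2.07, 2.71 and 4.74 FPKM in wild-type, 6.498, 12.1, 5.33 and 7.63 FPKM in bcat-1 mutants and 8.200, 7.74, 12.6 and 8.45 FPKM in double mutants. In ivd-1 mutants it measured 4.68, 1.89, 3.99 and 3.45 FPKM, and in hecd-1 mutants 2.48, 3.86, 8.12 and 7.38 FPKM, replicates 3 and 4 lying above every wild-type sample and replicates 1 and 2 among them. pes-10 rose in bcat-1 mutants (1.04 ± 0.35 SE, adjusted p = 0.0207) and double mutants (1.30 ± 0.35 SE, adjusted p = 0.00716). In hecd-1 mutants the change was 0.48 ± 0.35 SE, adjusted p = 0.351, which was not called. After median-of-ratios scaling the bcat-1 calls of vet-6 (adjusted p = 0.0543) and pes-10 (adjusted p = 0.053) were lost.

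**Figure D2:**
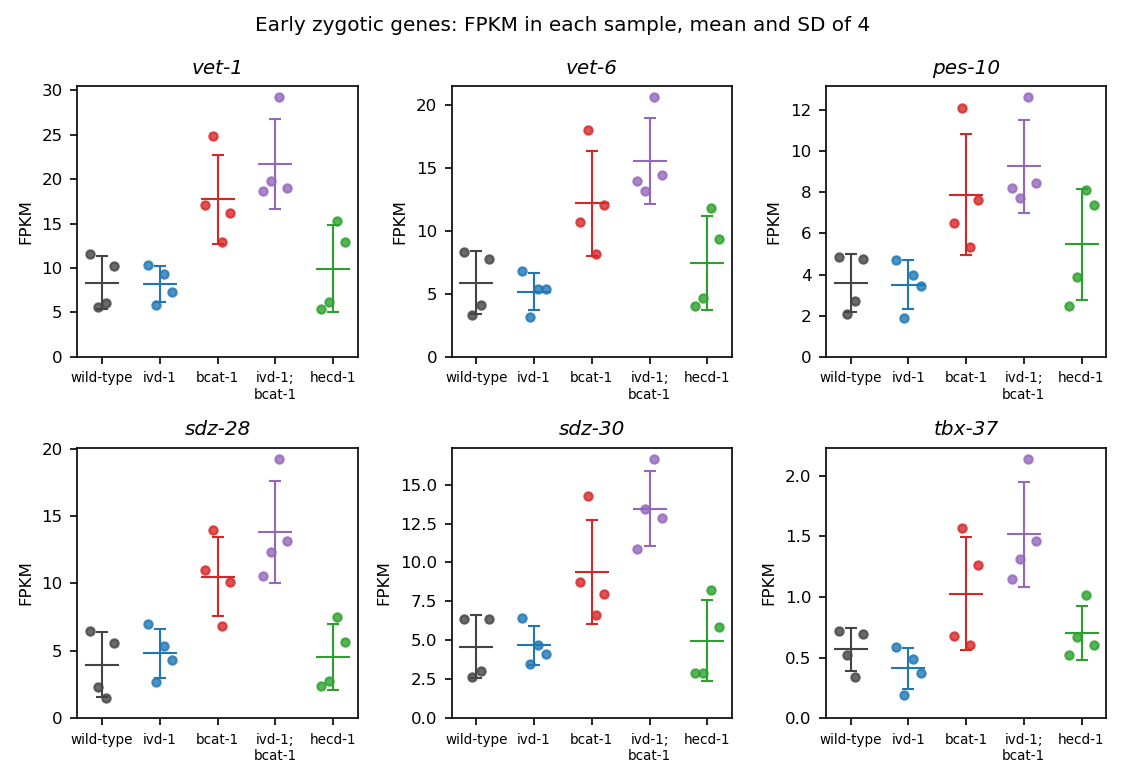
FPKM of vet-1, vet-6, pes-10, sdz-28, sdz-30 and tbx-37 in each sample (points, replicates 1 to 4 from left to right), with the mean (line) and SD (bars) of 4. For all 6 genes, the 4 double-mutant samples lie above the 4 wild-type samples and above the 4 ivd-1 samples.

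Over the 48 genes, 25 were higher in bcat-1 mutants than in wild-type and 0 lower, where 33.9% of all genes tested were higher and 10.3% lower. The median log2 fold change of the 48 was 0.59, against 0.17 over all genes. At an unadjusted p below 0.05, 30 members were higher and 0 lower. The share of all genes at that unadjusted limit was not counted, here and in the comparisons below. In 14 genes (29.2%) every bcat-1 mutant sample lay above every wild-type sample, as it did in 29.5% of all genes tested. The number of calls rested in part on scaling and on single samples. It was 16 after median-of-ratios scaling, 6 higher and 1 lower (pes-23) after quantile normalization, and 12 without wild-type replicate 2, the sample that was lowest of its strain for 25 of the 48 genes. Quantile normalization ended the bcat-1 calls of vet-1 (adjusted p = 0.121), vet-6 (adjusted p = 0.255), pes-10 (adjusted p = 0.336) and sdz-28 (adjusted p = 0.104), all still above 0.

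In double mutants, 32 of the 48 genes were higher than in wild-type and 0 lower, where 26.4% of all genes tested were higher and 11.9% lower. At an unadjusted p below 0.05, 38 were higher and 0 lower. All 4 double-mutant samples lay above all 4 wild-type samples in 32 genes, against 26.3% of all genes. The median log2 fold change was 0.85, against 0.10 over all genes. The count was 29 higher and 1 lower (pes-9) after median-of-ratios scaling, 15 after quantile normalization and 26 to 33 when single samples were left out. Among the double-mutant calls that quantile normalization ended were vet-2 (adjusted p = 0.0572), pes-10 (adjusted p = 0.0598) and tbx-37 (adjusted p = 0.0546).

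Against ivd-1 mutants, which carry the same ivd-1 allele, double mutants had 31 members higher and 3 lower, where 21.4% of all genes tested were higher and 23.2% lower. In 31 genes every double-mutant sample lay above every ivd-1 mutant sample, against 20.4% of all genes. The median was 0.83 on the log2 scale, while that of all genes was -0.01. In the same comparison 18 of 20 maternal and 11 of 12 oocyte genes were also higher, and 9 of 10 sperm, 6 of 7 body muscle and 4 of 6 intestine genes were lower, and their part in the count was not tested. The count of members higher moved little with processing. It was 31 higher after median-of-ratios scaling, 34 after quantile normalization and 26 to 31 when single samples were left out. The comparisons share double-mutant or wild-type samples and are not independent of each other.

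**Figure D3:**
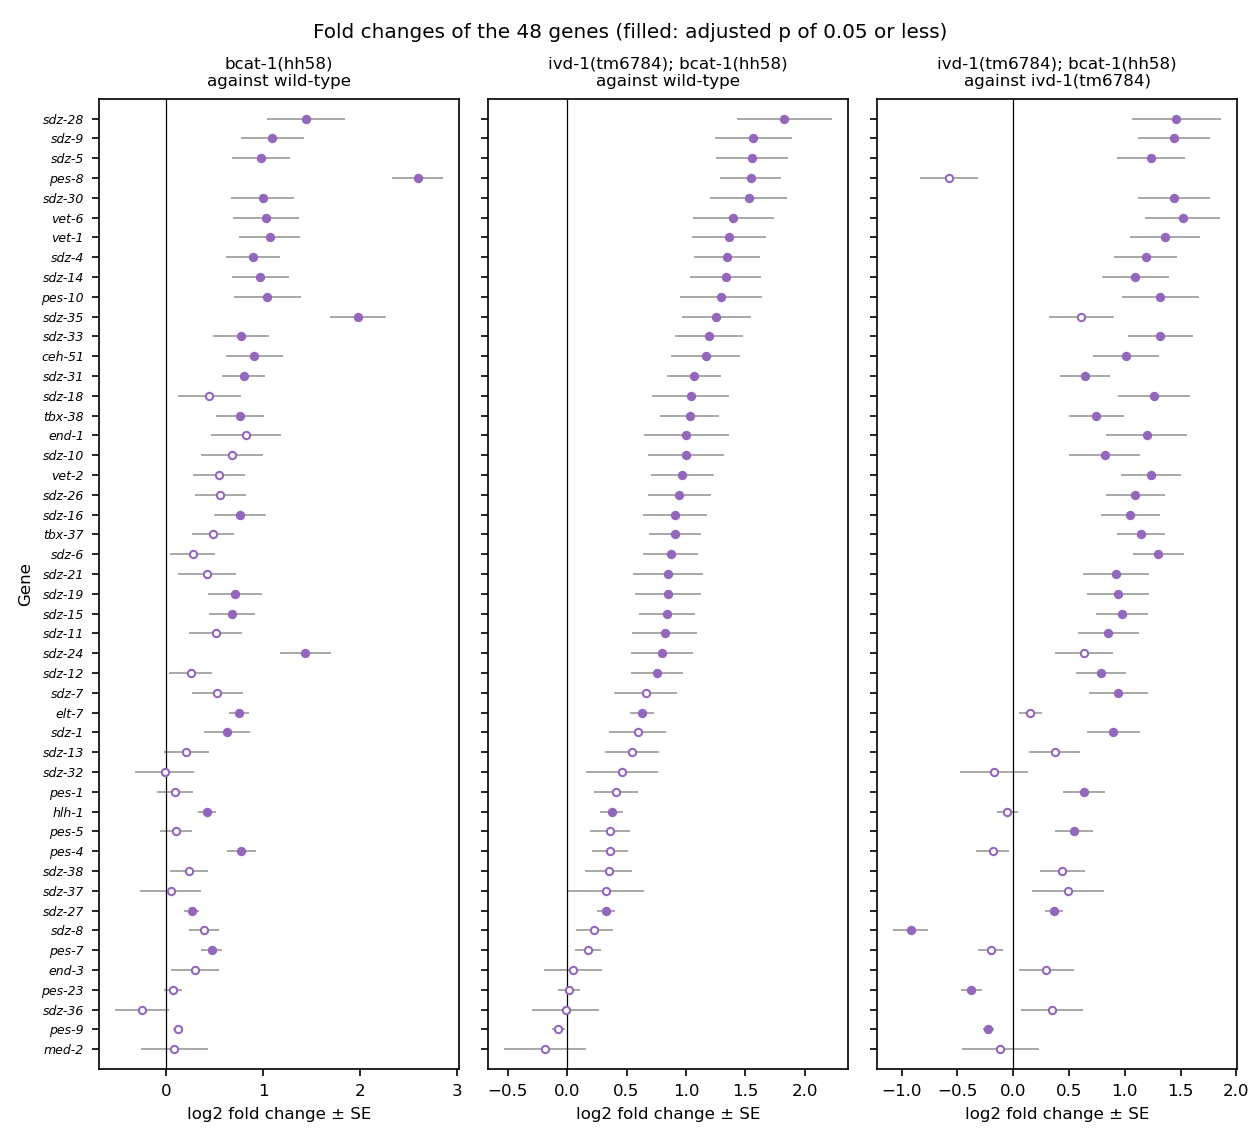
log2 fold change with its SE for each of the 48 genes in bcat-1 against wild-type, double mutants against wild-type and double mutants against ivd-1 (n = 4 per strain). Filled points pass an adjusted p of 0.05, which 25, 32 and 34 genes did.

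By strain mean, 30 of the 48 genes were highest in double mutants, second in bcat-1 mutants and lower in the other 3 strains. The step from bcat-1 mutants to double mutants was itself not called for any of them. After median-of-ratios scaling it was called for sdz-6 (0.67, adjusted p = 0.0378). After quantile normalization it was called for sdz-6 (1.00, adjusted p = 0.02), sdz-5 (0.95, adjusted p = 0.0494) and tbx-37 (0.79, adjusted p = 0.0389) among the genes described one by one. Between those strains, 0 members were higher and 2 lower, where 3.93% of all genes tested were higher and 19.5% lower. At an unadjusted p below 0.05, 2 were higher and 6 lower. The 2 lower genes were pes-8 and pes-9, and neither call was kept in a fit of those 2 strains alone, which called 0 members (8 at an unadjusted p below 0.05). The pes-9 call was also lost after median-of-ratios scaling (adjusted p = 0.136) and after quantile normalization (adjusted p = 0.0526). With all strains in the fit, 9 members were called without bcat-1 mutant replicate 2 and 0 without bcat-1 mutant replicate 3 or double-mutant replicate 3.

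The sdz genes made up most of the genes called in bcat-1 and double mutants, as they did of the 48 members. Of the 29 sdz genes, 15 were higher in bcat-1 mutants and 21 in double mutants than in wild-type. Over all genes tested, 33.9% and 26.4% were higher in those comparisons. Against ivd-1 mutants, 21 sdz genes were higher in double mutants and 1 lower, where 21.4% of all genes tested were higher and 23.2% lower. None was lower than wild-type in any mutant. On the log2(FPKM + 0.5) scale the largest change in double mutants was in sdz-28, although the ratio of strain means, 3.47, was exceeded by sdz-35 (13.2), sdz-5 (3.75) and sdz-31 (3.53), which had lower levels. sdz-28 was at 6.46, 2.34, 1.48 and 5.61 FPKM in wild-type, 11.02, 13.99, 6.86 and 10.1 FPKM in bcat-1 mutants and 10.5, 12.4, 19.2 and 13.1 FPKM in double mutants. It measured 6.99, 2.67, 5.33 and 4.299 FPKM in ivd-1 mutants and 2.36, 2.74, 7.49 and 5.65 FPKM in hecd-1 mutants. Every bcat-1 mutant and double-mutant sample lay above the wild-type samples, which themselves fell into a higher pair, replicates 1 and 4, and a lower pair. sdz-28 rose by 1.44 ± 0.40 SE, adjusted p = 0.00716 in bcat-1 mutants and by 1.83 ± 0.40 SE, adjusted p = 0.00184 in double mutants.

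sdz-30 measured 6.35, 2.66, 3.01 and 6.35 FPKM in wild-type, 8.75, 14.2, 6.65 and 8.004 FPKM in bcat-1 mutants and 10.8, 13.4, 16.7 and 12.9 FPKM in double mutants. Its groups did not overlap wild-type in either strain, and it rose in both (1.00 ± 0.33 SE, adjusted p = 0.0189 and 1.53 ± 0.33 SE, adjusted p = 0.00147). The bcat-1 call of sdz-30 was lost after median-of-ratios scaling (adjusted p = 0.0523) and after quantile normalization (adjusted p = 0.31). The neighbouring genes sdz-9 and sdz-10, 102 bp apart on chromosome II, differed in level. sdz-9 measured 2.82, 1.63, 0.753 and 3.07 FPKM in wild-type and 5.57, 5.71, 9.36 and 6.08 FPKM in double mutants (1.57 ± 0.33 SE, adjusted p = 0.00121). sdz-10 measured 1.004, 0.287, 0.6304 and 1.397 FPKM and 1.63, 2.11, 2.57 and 1.88 FPKM in those strains (1.00 ± 0.32 SE, adjusted p = 0.0205). For both genes the double mutants lay above all wild-type samples. The sdz-10 call was lost after quantile normalization (adjusted p = 0.116).

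Further sdz genes with a log2 fold change of at least 1 in double mutants against wild-type were sdz-5 (1.55 ± 0.30 SE, adjusted p = 0.000755), sdz-4 (1.35 ± 0.28 SE, adjusted p = 0.00121), sdz-14 (1.33 ± 0.30 SE, adjusted p = 0.00204), sdz-33 (1.20 ± 0.29 SE, adjusted p = 0.00377), sdz-31 (1.07 ± 0.23 SE, adjusted p = 0.00135) and sdz-18 (1.04 ± 0.33 SE, adjusted p = 0.0177). For each of these, all double-mutant samples lay above all wild-type samples. After quantile normalization the calls of sdz-33 (adjusted p = 0.0594) and sdz-18 (adjusted p = 0.112) were lost. sdz-5 measured 1.37, 0.358, 0.298 and 1.39 FPKM in wild-type and 2.99, 2.91, 4.17 and 2.73 FPKM in double mutants. sdz-4 measured 2.300, 0.845, 1.47 and 2.296 FPKM in wild-type and 4.11, 4.81, 6.97 and 4.22 FPKM in double mutants, and sdz-33 2.99, 1.87, 2.23 and 2.78 FPKM and 5.87, 5.64, 8.09 and 5.55 FPKM. sdz-26 and sdz-16 passed with smaller changes against wild-type (0.94 ± 0.26 SE, adjusted p = 0.00929 and 0.91 ± 0.27 SE, adjusted p = 0.0128) and exceeded a log2 fold change of 1 against ivd-1 mutants (1.09 ± 0.26 SE, adjusted p = 0.00371 and 1.05 ± 0.27 SE, adjusted p = 0.00526). Their calls against wild-type were lost after quantile normalization (adjusted p = 0.116 and 0.139).

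Not every abundant sdz gene moved as much. sdz-27, the most abundant, measured 51.1, 54.3, 63.8 and 57.3 FPKM in wild-type and 73.5, 73.3, 68.03 and 69.3 FPKM in double mutants, a small change (0.33 ± 0.08 SE, adjusted p = 0.00386) between groups that did not overlap. After median-of-ratios scaling this call was lost (adjusted p = 0.067). sdz-37 measured 4.501, 3.23, 6.15 and 5.14 FPKM in wild-type and 5.69, 4.17, 9.18 and 5.73 FPKM in double mutants, which overlapped (0.33 ± 0.32 SE, adjusted p = 0.442). The 12 members not described one by one had means between 0.509 and 3.37 FPKM. Of these, 3 were higher in bcat-1 mutants, 5 in double mutants against wild-type and 8 in double mutants against ivd-1 mutants, with none lower in any comparison. Over all genes tested, 33.9%, 26.4% and 21.4% were higher in those comparisons and 10.3%, 11.9% and 23.2% lower.

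Among the lineage regulators, most of those used in the embryo's founder lineages followed the zygotic genes, at low levels. tbx-37 and tbx-38 are near-identical T-box genes that act in descendants of the anterior founder cell, so fragments may have been split between them. tbx-37 measured 0.716, 0.526, 0.337 and 0.696 FPKM in wild-type and 1.15, 1.32, 2.14 and 1.46 FPKM in double mutants, with no overlap (0.91 ± 0.22 SE, adjusted p = 0.00341). tbx-38 measured 1.29, 0.389, 0.3603 and 0.821 FPKM and 1.97, 1.45, 2.98 and 1.39 FPKM, also without overlap (1.03 ± 0.25 SE, adjusted p = 0.00347). In bcat-1 mutants, tbx-38 was called (0.76 ± 0.25 SE, adjusted p = 0.0181) and tbx-37 was not (0.48 ± 0.22 SE, adjusted p = 0.0816). The bcat-1 call of tbx-38 was lost after quantile normalization (adjusted p = 0.648).

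ceh-51, a homeobox gene of the mesodermal MS lineage, measured 1.76, 0.439, 0.813 and 0.952 FPKM in wild-type, 2.52, 3.03, 1.77 and 1.57 FPKM in bcat-1 mutants and 2.12, 2.62, 2.83 and 3.26 FPKM in double mutants. It rose in both (0.91 ± 0.29 SE, adjusted p = 0.0181 and 1.17 ± 0.29 SE, adjusted p = 0.00495), and the double-mutant samples lay above every wild-type sample. The bcat-1 call of ceh-51 was lost after quantile normalization (adjusted p = 0.524). end-1 measured 1.498, 0.496, 0.462 and 0.952 FPKM in wild-type, 2.13, 2.52, 0.541 and 2.79 FPKM in bcat-1 mutants and 1.999, 1.46, 2.71 and 2.37 FPKM in double mutants. Replicate 2 of the double mutants fell just inside the wild-type range of end-1, and the gene was called in double mutants (1.00 ± 0.36 SE, adjusted p = 0.0357) but not in bcat-1 mutants (0.82 ± 0.36 SE, adjusted p = 0.0731). After median-of-ratios scaling the double-mutant call was lost (adjusted p = 0.0518).

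end-3, which acts beside end-1, showed another picture. It measured 1.29, 0.568, 0.411 and 1.195 FPKM in wild-type, 0.657, 0.741, 1.35 and 0.759 FPKM in double mutants and 0.867, 1.28, 1.84 and 1.75 FPKM in hecd-1 mutants. No comparison called it, and its strain mean was highest in hecd-1 mutants (0.53 ± 0.24 SE, adjusted p = 0.134). med-2 was at or below 0.816 FPKM in every sample and listed at 0 in some samples of 4 strains. It was not called in any comparison, and near-identical med-1 stayed below the limit, so the top of this cascade lay near the lower limit of these data.

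The lineage regulators elt-7 and hlh-1 had another order of the strains. elt-7, which stays in use in the adult gut, measured 6.52, 7.11, 5.25 and 5.15 FPKM in wild-type, 8.26, 8.99, 8.09 and 8.71 FPKM in ivd-1 mutants, 10.5, 10.1, 12.1 and 8.895 FPKM in bcat-1 mutants and 9.62, 9.22, 10.002 and 9.19 FPKM in double mutants. All 3 mutants lay above wild-type, and elt-7 rose in each (0.48 ± 0.10 SE, adjusted p = 0.0026, 0.75 ± 0.10 SE, adjusted p = 1.2e-05 and 0.63 ± 0.10 SE, adjusted p = 0.000148). The elt-7 call in ivd-1 mutants was lost after quantile normalization (adjusted p = 0.306). In hecd-1 mutants elt-7 measured 5.66, 6.88, 5.73 and 6.03 FPKM, within the wild-type range. hlh-1, the worm MyoD gene of body muscle, measured 3.25, 2.93, 2.67 and 2.85 FPKM in wild-type, 4.66, 3.92, 3.63 and 4.24 FPKM in ivd-1 mutants and 3.95, 3.87, 4.45 and 4.07 FPKM in bcat-1 mutants. It rose in ivd-1 mutants (0.43 ± 0.10 SE, adjusted p = 0.00406), bcat-1 mutants (0.42 ± 0.10 SE, adjusted p = 0.00167) and double mutants (0.37 ± 0.10 SE, adjusted p = 0.00562). After quantile normalization these fold changes were -0.038, -0.18 and 0.15 and none was called, so the direction of the first 2 depended on scaling.

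The pes genes did not share a single order of the strains. Against wild-type, 5 of 8 were higher in ivd-1 mutants, 4 in bcat-1 mutants and 2 in double mutants, and 1 was higher and 1 lower in hecd-1 mutants. Over all genes tested, 19.9%, 33.9%, 26.4% and 14% were higher in those comparisons, and 7.15% were lower in hecd-1 mutants. Whether the pes counts differ from these shares was not tested. On the log2(FPKM + 0.5) scale pes-8 changed most of all members against wild-type, although the ratio of the bcat-1 mean to the wild-type mean was 7.34 for pes-8 and 26.9 for the scarcer sdz-35. pes-8 went from 3.27, 2.12, 1.91 and 1.71 FPKM in wild-type to 10.1, 15.04, 8.62 and 12.03 FPKM in ivd-1 mutants and 18.01, 10.2, 23.9 and 14.05 FPKM in bcat-1 mutants. It measured 8.91, 9.83, 5.07 and 6.53 FPKM in double mutants and 6.04, 4.75, 3.76 and 3.45 FPKM in hecd-1 mutants. Every mutant sample lay above every wild-type sample, and pes-8 rose in ivd-1 mutants (2.12 ± 0.26 SE, adjusted p = 3.58e-05), bcat-1 mutants (2.60 ± 0.26 SE, adjusted p = 6.1e-07), double mutants (1.54 ± 0.26 SE, adjusted p = 0.000215) and hecd-1 mutants (0.87 ± 0.26 SE, adjusted p = 0.026). The hecd-1 mutant call was lost when any of 5 samples was left out.

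pes-4 measured 8.62, 8.28, 8.26 and 7.39 FPKM in wild-type, 11.3, 14.02, 10.7 and 12.5 FPKM in ivd-1 mutants, 15.7, 10.3, 16.9 and 15.1 FPKM in bcat-1 mutants and 12.7, 11.5, 8.46 and 10.1 FPKM in double mutants. The single mutants lay above wild-type and rose (0.54 ± 0.15 SE, adjusted p = 0.0135 and 0.78 ± 0.15 SE, adjusted p = 0.000355), while in double mutants the change was 0.36 ± 0.15 SE, adjusted p = 0.0638. pes-7, whose protein resembles the IQGAP scaffolds, did likewise, with 0.38 ± 0.11 SE, adjusted p = 0.0216 in ivd-1 mutants, 0.47 ± 0.11 SE, adjusted p = 0.00229 in bcat-1 mutants and 0.17 ± 0.11 SE, adjusted p = 0.233 in double mutants. The ivd-1 call of pes-7 was lost after median-of-ratios scaling (adjusted p = 0.0524). That of pes-4 was lost after quantile normalization (log2 fold change 0.25, adjusted p = 0.0846). After quantile normalization pes-7 was called in neither single mutant, with a log2 fold change of 0.02 in ivd-1 mutants and -0.013 in bcat-1 mutants, so its direction depended on scaling. pes-9 measured 244, 258, 256 and 247 FPKM in wild-type and 217, 231, 227 and 220 FPKM in hecd-1 mutants, where it fell slightly (-0.16 ± 0.05 SE, adjusted p = 0.0303). In ivd-1 mutants pes-9 rose slightly (0.15 ± 0.05 SE, adjusted p = 0.0432), a call lost after median-of-ratios scaling (adjusted p = 0.536). pes-23 rose in ivd-1 mutants (0.39 ± 0.09 SE, adjusted p = 0.00662), a call lost after quantile normalization (adjusted p = 0.645), and pes-5 was called only in double mutants against ivd-1 mutants (0.54 ± 0.17 SE, adjusted p = 0.0158).

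Some sdz genes also departed from the order of the vet genes, each in its own way. sdz-8 measured 2.21, 2.53, 2.697 and 3.19 FPKM in wild-type and 6.79, 7.49, 5.62 and 6.06 FPKM in ivd-1 mutants, where it was highest and rose (1.15 ± 0.16 SE, adjusted p = 8.09e-05). It also rose in hecd-1 mutants, at 4.22, 4.32, 4.401 and 3.62 FPKM (0.56 ± 0.16 SE, adjusted p = 0.0173), and fell from ivd-1 mutants to the double mutants (-0.92 ± 0.16 SE, adjusted p = 0.000402). sdz-24 measured 4.87, 8.39, 10.2 and 7.12 FPKM in wild-type, 20.7, 16.1, 27.1 and 20.9 FPKM in bcat-1 mutants and 16.4, 18.96, 7.84 and 12.5 FPKM in double mutants. It was higher than wild-type in both (1.44 ± 0.26 SE, adjusted p = 0.000222 and 0.80 ± 0.26 SE, adjusted p = 0.0222), but highest in bcat-1 mutants. The double-mutant call of sdz-24 was lost after quantile normalization (adjusted p = 0.066). sdz-35 was close to absent in wild-type (0.0941, 0, 0.141 and 0.0457 FPKM) and measured 0.592, 0.635, 0.1405 and 0.281 FPKM in ivd-1 mutants, 2.38, 0.717, 2.79 and 1.68 FPKM in bcat-1 mutants and 1.295, 1.28, 0.271 and 0.864 FPKM in double mutants. It rose in bcat-1 mutants (1.98 ± 0.29 SE, adjusted p = 2.65e-05) and double mutants (1.25 ± 0.29 SE, adjusted p = 0.00276). No wild-type sample of sdz-35 reached 0.5 FPKM, so the gene passed the limit through mutant samples only. Its calls, which are included in the counts above, are therefore a description and no support for a difference. The sdz-24 gene overlaps sri-45 on the other strand, and 6 other members overlap a coding gene on the other strand. The library kit kept strand, but whether strand was used in making the FPKM is not given in the sources used here, so fragments of such pairs may not be told apart.

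**Figure D4:**
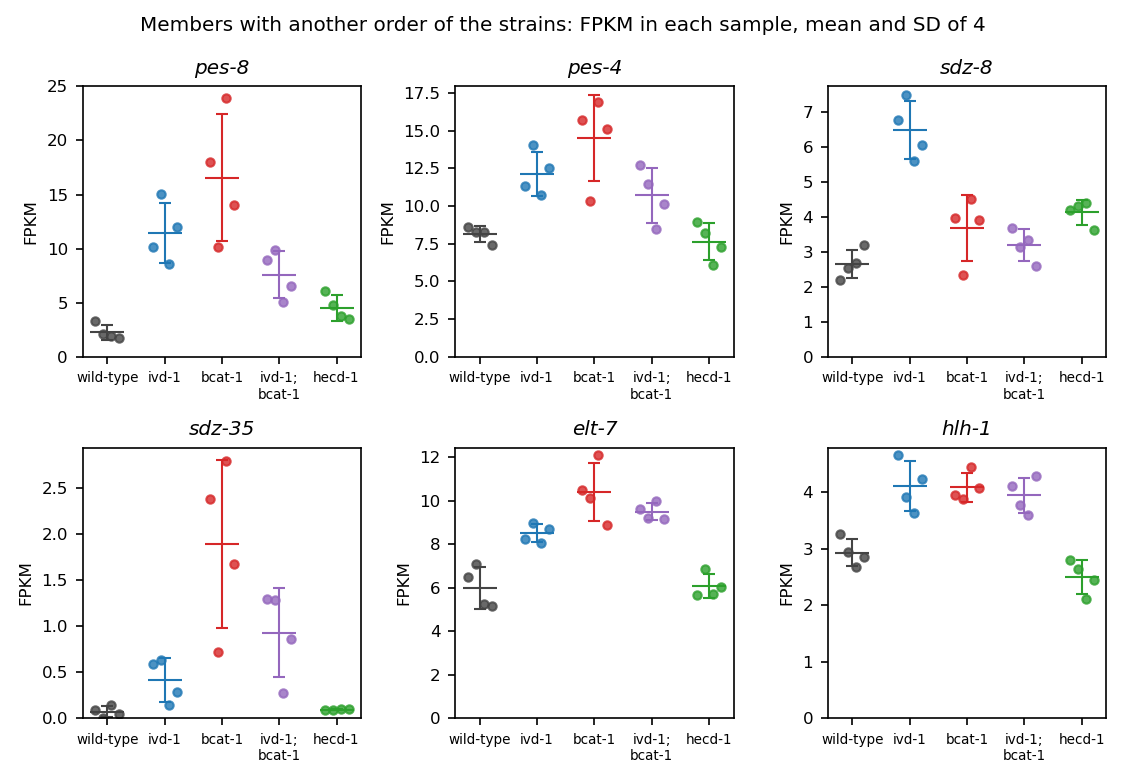
FPKM of pes-8, pes-4, sdz-8, sdz-35, elt-7 and hlh-1 in each sample (points, replicates 1 to 4 from left to right), with the mean (line) and SD (bars) of 4. pes-8, pes-4 and sdz-35 are highest in bcat-1 and lower in double mutants, and sdz-8 is highest in ivd-1.

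In ivd-1 mutants, 8 members were higher than in wild-type and 0 lower, where 19.9% of all genes tested were higher and 2.88% lower. The 8 were pes-4, pes-7, pes-8, pes-9, pes-23, sdz-8, elt-7 and hlh-1, and neither a vet gene nor pes-10 was among them. At an unadjusted p below 0.05, 10 were higher and 0 lower. The median of the 48 was -0.02 on the log2 scale, and 23 of them lay above 0. The count was 5 without ivd-1 mutant replicate 2 and 2 higher with 1 lower after quantile normalization. In hecd-1 mutants, 2 members were higher (pes-8 and sdz-8) and 1 lower (pes-9), where 14% of all genes tested were higher and 7.15% lower. The median there was 0.17, and leaving out wild-type replicate 2 or 3 or hecd-1 mutant replicate 1 left 1 call.

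The interaction asked whether losing both enzymes changed a gene by more or less than the sum of the separate changes. It was called for 10 members, 1 above and 9 below the sum, where 12.2% of all genes tested were above and 35.3% below. sdz-6 was the gene above the sum. It measured 1.15, 1.001, 1.66 and 0.896 FPKM in wild-type, 0.364, 0.611, 1.04 and 1.05 FPKM in ivd-1 mutants, 1.03, 1.42, 1.83 and 1.83 FPKM in bcat-1 mutants and 2.48, 1.91, 3.101 and 2.74 FPKM in double mutants. Only the double mutants lay wholly above wild-type (0.87 ± 0.23 SE, adjusted p = 0.00675), with an interaction of 1.03 ± 0.33 SE, adjusted p = 0.0176. The sdz-6 call in double mutants against wild-type was lost after quantile normalization (adjusted p = 0.0543). The 9 genes below the sum were pes-4, pes-7, pes-8, pes-9, pes-23, sdz-8, sdz-35, elt-7 and hlh-1. The largest was pes-8 (-3.17 ± 0.37 SE, adjusted p = 2.13e-05), followed by sdz-35 (-1.37 ± 0.41 SE, adjusted p = 0.0133) and sdz-8 (-1.30 ± 0.22 SE, adjusted p = 0.000273). No vet gene, nor pes-10 or sdz-28, was called (0.29 ± 0.44 SE, adjusted p = 0.596 for vet-1, 0.02 ± 0.57 SE, adjusted p = 0.979 for sdz-28). After median-of-ratios scaling the interaction was no longer called for hlh-1 (adjusted p = 0.0628), pes-23 (adjusted p = 0.0882) and pes-9 (adjusted p = 0.109), and it was called for pes-5 and tbx-37, above the sum. After quantile normalization the interaction turned to 0.37 for hlh-1 (adjusted p = 0.0446) and 0.19 for pes-23 (adjusted p = 0.197), so the sign of both depended on scaling. That setting also ended the interaction calls of pes-7 (adjusted p = 0.745), elt-7 (adjusted p = 0.946) and sdz-35 (adjusted p = 0.16), and called vet-2 above the sum (1.18, adjusted p = 0.0287). Under it 16 members were above and 4 below the sum.

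In each strain, the same samples were high for many members. In wild-type, replicates 1 and 4 both exceeded replicates 2 and 3 in 27 of 48 genes, and the reverse held in 3, pes-7, pes-9 and sdz-24. In hecd-1 mutants, replicates 3 and 4 both exceeded replicates 1 and 2 in 35 genes, and the reverse held in 5, hlh-1, pes-4, pes-7, pes-8 and pes-23. In bcat-1 mutants, replicate 2 was the highest for 33 genes and the lowest for 9, and in double mutants replicate 3 was the highest for 32 and the lowest for 9. In ivd-1 mutants the order of pairs was not counted. There replicate 1 was the highest for 24 of 48 genes, as was replicate 1 of wild-type. Replicate 2 of ivd-1 mutants was the lowest for 24 and the highest for 7. Replicate 2 of bcat-1 mutants and replicate 3 of the double mutants were both the highest for 27 genes, among them the 3 vet genes and pes-10. The opposite extreme in both held for 7, hlh-1, pes-4, pes-7, pes-8, pes-9, sdz-24 and sdz-35. The groups were set apart after their values were seen and are a description only. These orders were counted over the 48 genes and not over all genes tested, so whether they are particular to the members is not known. Such differences between samples of one strain were large. vet-6 in wild-type, for example, ranged from 3.33 to 8.31 FPKM, and in hecd-1 mutants from 4.05 to 11.8 FPKM.

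Other gene lists measured in the same extracts showed what else differed. Of 21 further zygotic regulators of embryonic fate, 16 were measured. Of these, 9 were higher in bcat-1 mutants and 13 in double mutants than in wild-type, 13 were higher in double mutants than in ivd-1 mutants, and none was lower in those comparisons. Their medians were 0.62, 0.81 and 0.72 on the log2 scale. pha-4, the organ identity gene of the pharynx, changed by 1.09 (SE 0.13, adjusted p = 2.91e-06) in bcat-1 mutants, and ceh-36, a homeobox gene of neurons, by 1.69 (SE 0.27, adjusted p = 0.000132) in double mutants. lin-26, an epidermal regulator, was the most abundant of the list and was not called in either (log2 fold changes -0.06 and 0.10).

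Maternal and oocyte transcripts moved with the zygotic genes in some comparisons and not in others. Of 20 maternal cell-fate regulators, 1 was higher and 2 lower in bcat-1 mutants than in wild-type (median -0.09), 5 were higher in double mutants (median 0.16) and 16 in hecd-1 mutants (median 0.31). Of 12 oocyte and eggshell genes, 0 were higher and 2 lower in bcat-1 mutants, 2 were higher in double mutants and 6 in hecd-1 mutants. In double mutants against ivd-1 mutants, however, 18 of the 20 maternal genes (median 0.36) and 11 of the 12 oocyte genes (median 0.37) were higher and 0 lower. Against bcat-1 mutants, 7 and 10 of them were higher in double mutants and 0 lower (medians 0.26 and 0.33). Of 10 germline genes, 7 were lower in bcat-1 mutants and 6 in double mutants. The summed level of the maternal list was 3422 to 3807 FPKM in wild-type, 2816 to 4137 FPKM in bcat-1 mutants, 3772 to 4609 FPKM in double mutants and 4300 to 5045 FPKM in hecd-1 mutants. In ivd-1 mutants it was 2749 to 3384 FPKM. The maternal and oocyte sums were highest in replicate 2 of bcat-1 mutants, replicate 3 of the double mutants and replicates 3 and 4 of hecd-1 mutants, the samples that were also high for most embryo genes. rme-2 was listed at 0 in 1 sample and him-3 in 3 (an exact 0 can be a failed estimate).

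**Figure D5:**
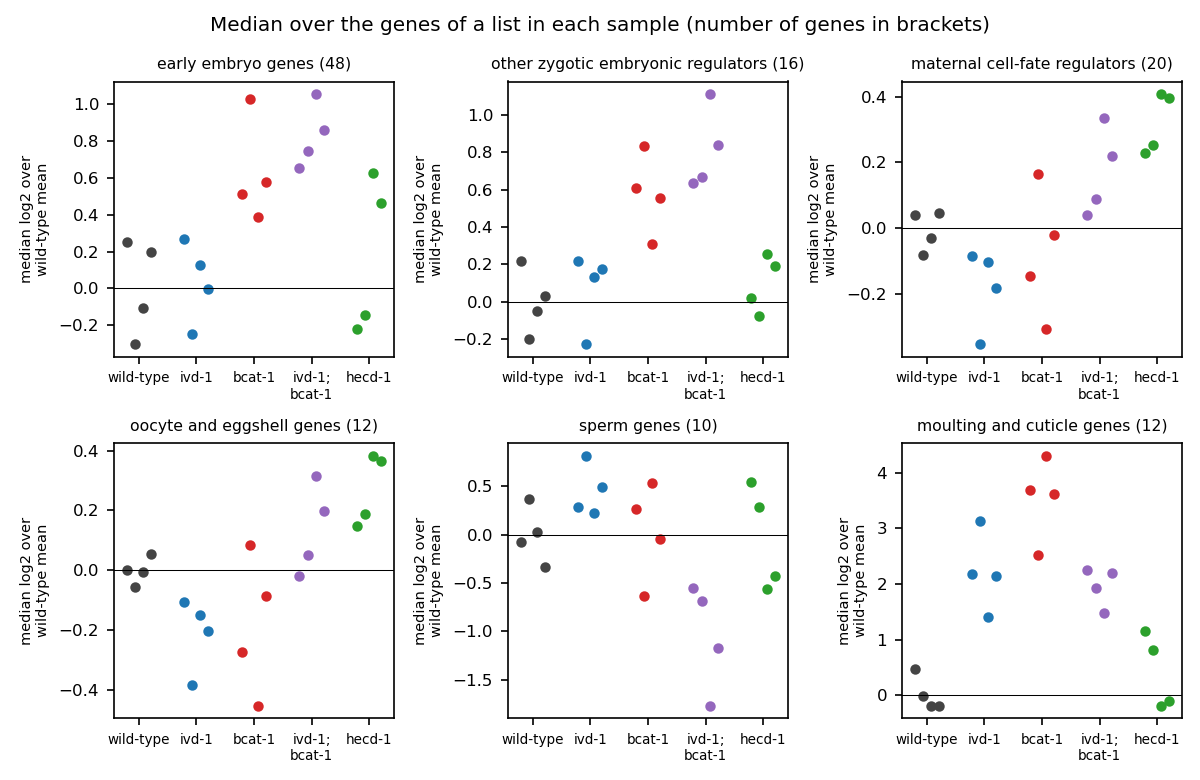
Median over the genes of a list of log2(FPKM + 0.5) minus the wild-type mean, in each sample (points, replicates 1 to 4 from left to right in each strain), with the number of genes in brackets. Both zygotic lists are mostly highest in bcat-1 and double mutants, the maternal and oocyte lists are mostly highest in hecd-1, and the moulting list is raised in ivd-1, bcat-1 and double mutants. For the early embryo genes, hecd-1 replicates 3 and 4 (0.63 and 0.46) lie within the range of the bcat-1 samples (0.39 to 1.03). Vertical scales differ between panels.

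Genes used at the last moult and in sperm also differed between strains. All 12 moulting and cuticle genes were higher in bcat-1 mutants than in wild-type, 11 in ivd-1 mutants, 11 in double mutants and 0 in hecd-1 mutants. Their summed level was 24.5 to 41.5 FPKM in wild-type, 113 to 292 FPKM in ivd-1 mutants, 183 to 645 FPKM in bcat-1 mutants, 87.6 to 144 FPKM in double mutants and 30.3 to 77.1 FPKM in hecd-1 mutants. No gene of this list was at 0 in any sample. In bcat-1 mutants the sample lowest for this list, replicate 2, was the one highest for most embryo genes, and the sample highest for it, replicate 3, was the lowest for 27 of them. Sperm genes were lower in double mutants than in wild-type for 6 of 10, with a summed level of 31.0 to 76.3 FPKM against 108 to 188 FPKM, and again lowest in replicate 3. Of 6 intestine genes, 3 were higher in bcat-1 mutants and 4 lower in hecd-1 mutants, and of 7 body muscle genes, 1 was higher in bcat-1 mutants and 2 lower in hecd-1 mutants. In double mutants, 1 intestine gene was higher and 2 lower than in wild-type, and 1 muscle gene was lower. In double mutants against ivd-1 mutants, 9 of 10 sperm genes (median -1.61), 6 of 7 muscle genes (median -0.49) and 4 of 6 intestine genes (median -0.58) were lower, while 1 intestine gene was higher. The part of worm age, egg number or tissue share in the values of the 48 genes was not tested.

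The members shared features that their names did not use. Of the 48 genes, 18 lie on chromosome II, which is 37.5% against 17.6% of the coding genes tested. Chromosomes V, III, I, IV and X hold 9, 8, 6, 4 and 3 of them. They are short genes with few exons in the WBcel235 annotation. Their median is 3 exons and 1040 bases of transcript, against 5 exons and 1292 bases over the coding genes tested, and 35 of 48 (72.9%) have 4 exons or fewer, against 38.6%.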

How the data were processed

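RNA was measured by poly-A-selected, stranded, paired-end sequencing of whole worms, 20 samples in all. The authors aligned reads with Tophat2 and summarised them with Cufflinks2 on an Ensembl annotation, and deposited 1 table of FPKM per gene, whose genome build is not given in the sources used here. FPKM are not counts, so limma (version 3.58.1, R 4.3.3) took the place of a count model. Genes with at least 0.5 FPKM in at least 4 samples were tested on log2(FPKM + 0.5), with strain as the only term, all 20 samples in 1 fit, a trend in the prior variance, and two-sided p-values adjusted by Benjamini-Hochberg over 15957 genes (called at 0.05 or less). Symbols were matched for 43325 of 46284 gene IDs. The fit was tested on simulated data. The members and lists were chosen with earlier results of these data known. Described one by one were the lineage regulators and every other kept member with a mean of at least 5 FPKM, or called with an absolute log2 fold change of at least 1 in a comparison. Other list genes were named where extreme. Replicates were grouped by genotype label. Read depth is not known from FPKM, so no counting interval is given.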

Additional observations from a re-analysis of the deposited data

Results flagged for a closer look

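In 180 sets of 4 replicates of 1 gene in 1 strain, 6 had a single sample far from the other 3 by Dixon's criterion, where chance gives about 1 in 20. Of these, 5 were replicate 3 of the double mutants. vet-1 measured 29.3 FPKM there against 18.7 to 19.7 FPKM in the others, pes-10 12.6 against 7.74 to 8.45 FPKM, sdz-9 9.36 against 5.57 to 6.08 FPKM, sdz-33 8.09 against 5.55 to 5.87 FPKM, and end-3 1.35 against 0.657 to 0.759 FPKM. The remaining one was sdz-18 in replicate 2 of bcat-1 mutants, at 2.35 FPKM against 1.07 to 1.27 FPKM.

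The effect of the ivd-1 mutation differed with and without the bcat-1 mutation in 10 members, by the interaction term of the limma fit. Of these, 1 was above and 9 below the sum of the separate changes, where 12.2% of all genes tested were above and 35.3% below. On the log2 scale the interaction was -3.17 for pes-8 (adjusted p = 2.13e-05), -1.37 for sdz-35 (adjusted p = 0.0133), -1.30 for sdz-8 (adjusted p = 0.000273), -0.96 for pes-4 (adjusted p = 0.00199) and -0.67 for pes-7 (adjusted p = 0.00323). It was -0.60 for elt-7 (adjusted p = 0.00385), -0.47 for hlh-1 (adjusted p = 0.0105), -0.45 for pes-23 (adjusted p = 0.0132) and -0.35 for pes-9 (adjusted p = 0.00147). For sdz-6 it was 1.03 (adjusted p = 0.0176). Median-of-ratios scaling ended the interaction calls of hlh-1, pes-23 and pes-9. Quantile normalization ended those of elt-7, pes-7 and sdz-35 and turned the sign for hlh-1 and pes-23.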

How the results depend on the processing

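Counts of called members held within 1.5 times for double mutants against ivd-1 mutants under every alternative run (29 to 37, with 34 in the main analysis). Quantile normalization moved the counts to 3 in ivd-1 mutants, 7 in bcat-1 mutants, 15 in double mutants against wild-type, 8 in double mutants against bcat-1 mutants and 20 for the interaction. The cause was not tested, though this normalization also shifted the median fold change of all genes by -0.42 in bcat-1 mutants. Median-of-ratios scaling left 16 calls in bcat-1 mutants. Sample quality weights gave 5 calls in hecd-1 mutants, and 4 in double mutants against bcat-1 mutants, as did a pseudocount of 1. A fit of those strains alone gave 0. Leaving out single samples gave 5 to 8 calls in ivd-1 mutants, 12 to 27 in bcat-1 mutants, 26 to 33 in double mutants, 1 to 2 in hecd-1 mutants, 29 to 34 in double mutants against ivd-1 mutants, 0 to 9 in double mutants against bcat-1 mutants and 10 to 13 for the interaction.

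Quantile normalization turned the sign of 8 values. For hlh-1 they became -0.038 in ivd-1 mutants, -0.18 in bcat-1 mutants, 0.33 in double mutants against bcat-1 mutants and 0.37 for the interaction. For pes-23 they became -0.42 in bcat-1 mutants, 0.24 in double mutants against bcat-1 mutants and 0.19 for the interaction, and for pes-7 -0.013 in bcat-1 mutants.

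Of 24 pairs of same-numbered samples, 7 had deviations from their strain means that correlated above 0.1, so the samples were not treated as paired. Whether a replicate number marks samples collected together is not stated in the sources used here, and these correlations cannot decide it. With the replicate number as a block, 25 members were called in bcat-1 mutants, 32 in double mutants and 33 in double mutants against ivd-1 mutants. FPKM limit what can be said of members near 0.5, such as med-2 and sdz-35.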
